A study of Rattus norvegicus with 10 samples.

Results

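The genes described here code for the actin, myosin and tubulin cytoskeleton and for proteins that build, cut or move its filaments, measured in rat liver. They were chosen by name: probes whose rat RefSeq symbol begins with Tuba, Tubb, Actn, Actr, Arpc, Cfl, Pfn, Capz, Tmsb, Myl, Myh, Myo1 or Tpm, with 1 tropomyosin gene left out, together with Actb and Actg1. This gave 82 genes on 113 probes, of 13832 genes named on the array. For 51 of the 82, at least 1 probe was above background on 5 or more of the 10 arrays, and these were tested. The remaining 31 were not. The letters also brought in Cflar, an inhibitor of death-receptor signalling, and Mylip, a ubiquitin ligase that lowers the LDL receptor, which are counted with the others but have another function.

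The livers came from 10 male Wistar rats, 1 array per rat. Control rats (n = 5) had received vehicle only. DEN/TAA rats (n = 5) had received 200 mg/kg diethylnitrosamine, a DNA-alkylating carcinogen that acts in liver, by 1 intraperitoneal injection at 6 weeks of age. Thioacetamide, which becomes toxic once hepatocytes metabolise it and leaves fibrosis behind, followed after 2 weeks. It was injected intraperitoneally at 200 mg/kg, 2 times a week, in cycles of 3 weeks with and 1 week without injections, and the protocol is labelled as lasting 23 weeks. The age label of every rat is also 23 weeks, so the length of treatment is not settled here. The series title presents the protocol as a model of liver cancer arising in cirrhosis, and the samples are whole liver, so that more cells of a type and more RNA per cell cannot be told apart. The labels do not say whether a sample held nodules, tumour or scar.

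Actin filaments grow from monomers that thymosins and profilins hold in reserve, branch through the Arp2/3 complex, are capped at their fast-growing ends by capping protein and are severed by cofilins. Tropomyosins lie along the filament, and non-muscle myosin II pulls on it when its light chains are phosphorylated. Tubulin, a dimer of an alpha and a beta chain, forms the microtubules of the mitotic spindle and of vesicle transport. In liver, actin lines the bile canaliculi, and stellate cells that turn into contractile myofibroblasts are rich in filaments and in myosin II.

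Signals are log2 intensities relative to the 75th percentile of the same array, taken over probes above background on all arrays, so negative values are dimmer than that percentile. Control arrays had fewer spots above background (25.5% ± 6.21, SD, n = 5, range 16.5% to 32.9%) than DEN/TAA arrays (40.6% ± 4.42, SD, n = 5, range 36.1% to 46.6%). Control 5 had the fewest, and no spot was saturated. A difference is DEN/TAA minus control on the log2 scale with its standard error (SE), and adjusted p-values are limma's with Benjamini-Hochberg adjustment over 6855 genes, with a threshold of 0.05. Each difference was also computed under 5 other scalings, which makes 6: the percentile over all probes, spike-in RNA, normexp background correction (which keeps dim signals positive), quantile normalisation and the authors' deposited log2 table. Where a whole group of arrays left a member below background, only a bound can be given for it, taken against the lowest signal above background on those arrays (the floor) and written as at least N-fold. Probes of different tubulins, of the 2 cytoplasmic actins and of the regulatory light chains target closely related sequences. How far they share signal was not examined, so the single genes of those families are uncertain.

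Most of the cytoskeleton genes that could be tested were higher in DEN/TAA liver. Of 51 members, 34 were higher (66.7%), 1 was lower and 16 did not pass the threshold, where 39.2% of all genes tested were higher and 16.3% lower. The median difference was 1.03 over the members (0.88 with members undetected in a whole group at their bound) and 0.33 over all genes tested. Of the 35 members called, 23 differed at least 2-fold when members undetected in a whole group were taken at their bound. The same count was not made over all genes, so whether it is particular to the members is not known. For 26 members every DEN/TAA rat lay above every control rat (26 of 51 tested, where the share of all genes was 28.1%), and for no member did every DEN/TAA rat lie below (0 of 51, against 11.4% of all genes). The 26 include Capza1 and Pfn2, which were above background on no control array, so their separation rests on undetected signals. Capza1 turned to -0.57 with those signals at the floor. The difference of each of the 34 was positive on slide 1, slide 2 and slide 3 taken alone, and a fit with slide as a block called the same 34 higher. The 34 were chosen by their difference over these same arrays, so their sign on each slide is not independent support. How many of all higher genes kept their sign on each slide was not counted.

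The share was similar among the best measured members. Of the 27 members above background on all 10 arrays, 19 were higher (70.4%) and 0 were lower by limma (0 also at an unadjusted p under 0.05), against 32.3% higher and 26.5% lower among the 3568 genes measured as well, with medians of 0.98 and 0.10. Of the 34 higher members, 19 were above background on all control arrays, 12 on some and 3 on none. With signals below background raised to the lowest signal above background on the same array, 29 of the 34 were still called higher and Actr1a, Arpc4, Capza1, Mylip and Pfn2 were not.

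**Figure D1:**
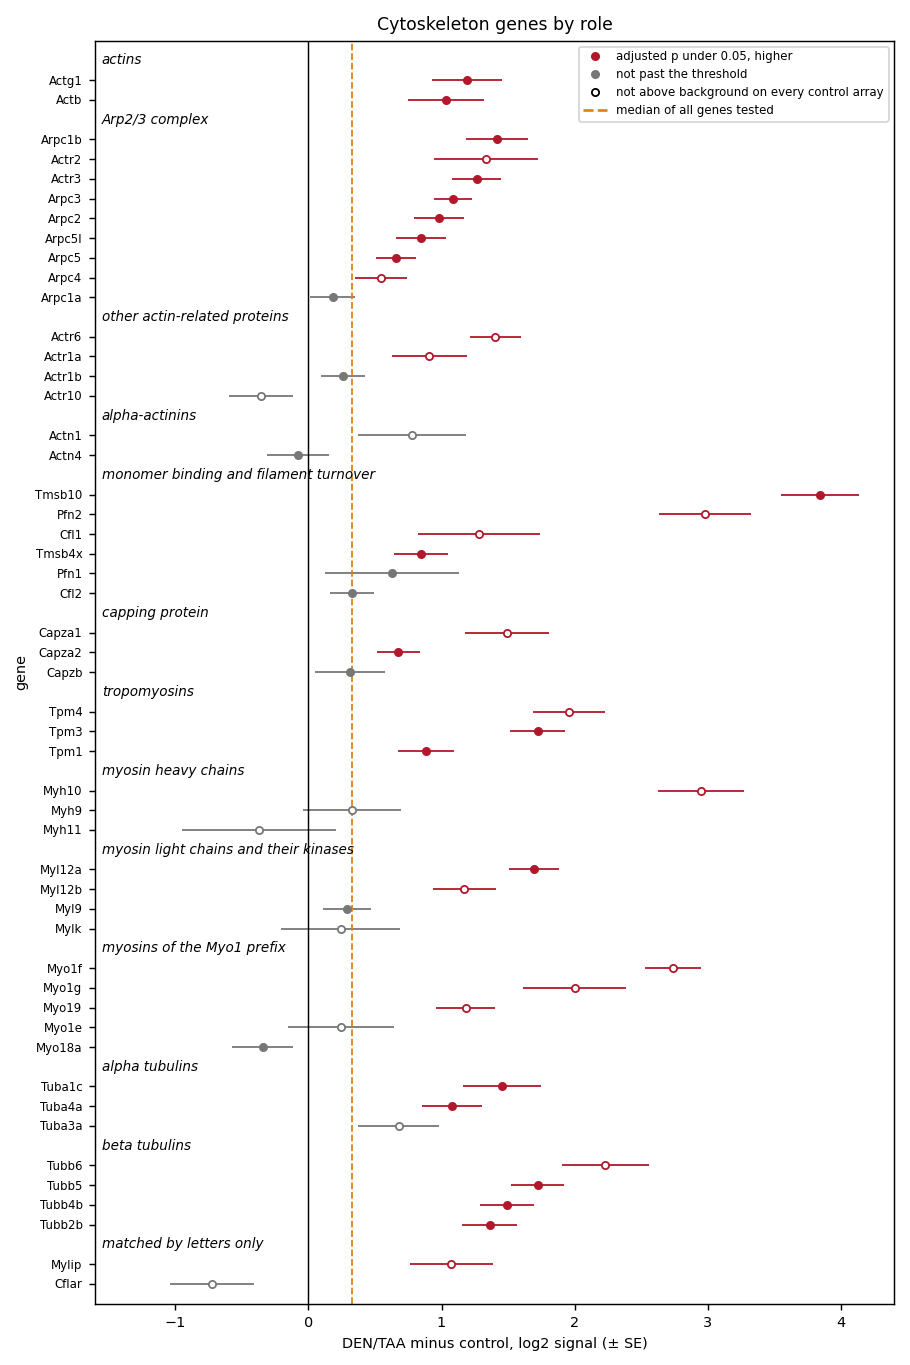
Difference in log2 signal (DEN/TAA minus control, horizontal axis, ± SE) for the tested members reported here, grouped by role. Filled points were above background on all control arrays, and red points passed the threshold as higher. The dashed line is the median of all genes tested (0.33), and most members lie to its right, with Tmsb10 farthest at 3.84.

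Both cytoplasmic actins were higher. Actb, the beta-actin found in nearly every cell and widely used as a reference gene, measured 2.76, 2.25, 2.20, 1.67 and 1.28 in control rats 1 to 5. It measured 3.19, 3.29, 2.86, 3.53 and 2.45 in DEN/TAA rats 1 to 5. Control 1 lay above DEN/TAA 5, so the groups overlapped. The difference was 1.03 (SE 0.29), or 2.04-fold (adjusted p = 0.00964), and it missed the threshold when the percentile was taken over all probes (0.73, adjusted p = 0.0528). Actg1, the gamma-actin partner of Actb, measured 1.51, 0.97, 0.70, 0.63 and 0.13 in control rats and 2.19, 2.14, 1.49, 2.39 and 1.67 in DEN/TAA rats. Here control 1 lay just above DEN/TAA 3, and the difference was 1.19 (SE 0.26), or 2.28-fold (adjusted p = 0.00246). The controls stood in the same order of rats for both genes, from control 1 at the top to control 5 at the bottom.

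The stretch of genome upstream of Actg1 holds the element through which serum response factor is known to regulate actin genes, the CArG box (CC, 6 of A or T, GG). It is shown because the actins, thymosins and tubulins were higher together, with the motifs searched in capitals (CArG box, CCAAT and TATAA), 5′ to 3′ on the gene's strand, ending at the base before the annotated start. The sequences are from RefSeq, build GRCr8, the Actg1 one being chr10:106120952-106121201 on the minus strand.
Actg1: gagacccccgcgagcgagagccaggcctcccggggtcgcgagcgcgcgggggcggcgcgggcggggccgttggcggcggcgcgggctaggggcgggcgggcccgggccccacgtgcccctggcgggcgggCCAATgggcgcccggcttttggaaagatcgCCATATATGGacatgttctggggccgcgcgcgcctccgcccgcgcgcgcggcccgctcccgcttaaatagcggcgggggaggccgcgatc
With the base before the start as position -1, the CArG box of Actg1 began at -90 and a CCAAT at -120. Searched on both strands of the 250 bases upstream, the CArG box was found in 4 of the 72 members with a promoter in the table (5.56%), namely Actg1, Myo1e, Myl3 and Myh4, and in 1.62% of all 27457 genes with a promoter there. Of these 4 genes Actg1 was called, Myo1e did not pass (0.24, SE 0.40) and Myl3 and Myh4 were not above background on any array. Srf, the gene of serum response factor itself, differed by 0.26 (SE 0.23, adjusted p = 0.354). A match of letters is a description of the window and not a site of binding.

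The Arp2/3 complex, the assembly that starts actin branches, was higher nearly throughout. All 9 of its genes on the array were tested, 8 were higher and the median difference was 0.98. Arpc3, a small subunit of the complex, measured 0.26, 0.27, 0.75, 0.51 and 0.60 in control rats and 1.48, 1.5, 1.60, 1.76 and 1.47 in DEN/TAA rats. The rats within each group lay close together and the groups did not overlap, with a difference of 1.09 (SE 0.15), or 2.12-fold (adjusted p = 8.56e-05). Arpc1b, the subunit form that prevails in blood cells, rose by 1.42 (SE 0.23, adjusted p = 0.000357). Its paralog Arpc1a, which can take the same place in the complex, differed by only 0.18 (SE 0.17, adjusted p = 0.378), and whether the paralogs differ from each other was not tested. Actr3, the Arp3 protein that together with Arp2 mimics an actin dimer, rose by 1.26 (SE 0.19), and Actr2, the Arp2 partner, by 1.34 (SE 0.39). Arpc2 differed by 0.98, Arpc5l by 0.85, Arpc5 by 0.66 and Arpc4 by 0.55, all past the threshold, but Arpc4 was above background on only 1 of 5 control arrays. It was called higher in 3 of 6 scalings and turned to -0.49 with normexp background correction, while Arpc2, Arpc3, Arpc1b, Actr2 and Actr3 were called higher in all 6.

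The other actin-related proteins did not move as a group. Of 7 genes, 4 were tested and 2 were higher, and Actrt1, Actrt2 and Actrt3, which are known from testis, were not above background on any array. Actr6, a subunit of a complex that exchanges histones rather than a filament protein, measured -4.90, -4.08, -4.28, -4.00 and -4.06 in control rats. In DEN/TAA rats it measured -2.81, -2.98, -3.14, -2.72 and -2.67. Every DEN/TAA rat lay above every control rat, by 1.40 on average (SE 0.19, 2.65-fold, adjusted p = 9.99e-05), although 2 of 5 control arrays were not above background. With normexp it missed the threshold (0.63, adjusted p = 0.0591). Actr1a, the main filament of dynactin, which links dynein to its cargo, differed by 0.91 (SE 0.28, adjusted p = 0.0175). It was above background on 2 of 5 control arrays, was called higher in 2 of 6 scalings and turned to -0.54 with normexp. Its paralog Actr1b, above background everywhere, differed by 0.26 (SE 0.16) and Actr10, also of dynactin, by -0.36 (SE 0.24), neither past the threshold, though Actr10 was called lower in 2 of 6 scalings.

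Among proteins that bind actin monomers or turn filaments over, thymosin beta-10 showed the largest measured difference of all tested members, each taken by its brightest probe. Tmsb10 keeps monomers out of filaments and is abundant in fetal and many cancer cells. It measured -2.63, -2.21, -1.35, -2.05 and -1.63 in control rats and 1.51, 1.43, 2.59, 2.25 and 1.55 in DEN/TAA rats. The groups were far apart, the highest control at -1.35 and the lowest DEN/TAA rat at 1.43. The difference was 3.84 (SE 0.29), or 14.3-fold (adjusted p = 1.77e-06), and it ranged from 3.26 to 4.50 over 6 scalings, in each of which Tmsb10 stood at or above the 98.6th percentile of all genes tested. That rank is the same by construction in the main, all-probe percentile and spike-in scalings. Tmsb4x, thymosin beta-4 and the main monomer buffer of many cells, was already bright in control liver (1.61 ± 0.37, SD, n = 5) and rose by 0.84 (SE 0.21, adjusted p = 0.00454). Its difference within slides ran from 0.20 on slide 3 to 1.38 on slide 1, and control 5 (2.21) lay above DEN/TAA 5 (2.14).

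The region upstream of Tmsb10 (chr4:106569141-106569390, GRCr8, minus strand) is shown because this gene differed most when each member was taken by its brightest probe. Its TATAA began at -29, and it held neither CCAAT nor a CArG box.
Tmsb10: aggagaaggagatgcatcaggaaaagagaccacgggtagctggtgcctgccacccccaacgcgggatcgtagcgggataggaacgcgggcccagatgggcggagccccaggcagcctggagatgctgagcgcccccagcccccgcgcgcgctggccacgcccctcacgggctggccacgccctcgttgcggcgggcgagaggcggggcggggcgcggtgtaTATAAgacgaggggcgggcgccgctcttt
A TATAA was found on either strand in 19 of 72 members (26.4%), near the 25.6% of all genes.

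Profilins and cofilins were less even. Pfn2, the profilin best known from neurons, was measured above background in each DEN/TAA rat but in none of the controls, so it is given as at least 1.62-fold higher, its measured difference of 2.98 resting on undetected control signals. Pfn1, the common profilin and above background on all arrays, ranged from -1.93 (control 5) to 0.57 (control 1) among controls and from -0.94 (DEN/TAA 5) to 0.66 (DEN/TAA 4). With that spread its difference of 0.63 (SE 0.50, adjusted p = 0.308) did not pass. Cfl1, the main cofilin, which severs filaments, rose by 1.28 (SE 0.46, adjusted p = 0.0322), again with control 5 (-4.55) and DEN/TAA 5 (-3.68) lowest, and was called in only 2 of 6 scalings. Cfl2, the cofilin of muscle, differed by 0.33 (SE 0.17, adjusted p = 0.117).

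Capping protein is a dimer of an alpha and a beta chain. Capza2, 1 of its alpha chains, rose by 0.68 (SE 0.16), or 1.60-fold (adjusted p = 0.00445), with no overlap between groups. It missed the threshold with the percentile over all probes (0.37, adjusted p = 0.122). The beta chain Capzb differed by 0.32 (SE 0.26, adjusted p = 0.327). Capza1, the other alpha chain, measured -6.81, -7.60, -7.79, -7.17 and -5.95 in control rats, none of them above background, and -5.13, -5.78, -5.86, -5.40 and -5.69 in DEN/TAA rats. Its adjusted p was 0.00197, but with control signals at the floor the difference turned to -0.57, and with normexp to -0.50, so no fold is given. Capza3, known from sperm, was not above background on any array. The alpha-actinins, which bundle filaments, gave no call: Actn4 differed by -0.08 (SE 0.23) and Actn1 by 0.78 (SE 0.41, adjusted p = 0.125), and the muscle forms Actn2 and Actn3 were not above background.

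All 3 tropomyosin genes tested were higher, with a median difference of 1.72. Tpm3, whose products include non-muscle tropomyosins, measured -0.28, 0.03, 0.55, -0.11 and -0.38 in control rats and 1.68, 1.60, 1.92, 1.95 and 1.26 in DEN/TAA rats. The groups were separate, and the difference was 1.72 (SE 0.21), or 3.30-fold (adjusted p = 3.73e-05). Tpm4, another non-muscle tropomyosin, rose by 1.96 (SE 0.27, adjusted p = 0.000109), with 3 of 5 control arrays above background and 1.55 at the floor. It lost its call with normexp (0.48). Tpm1 rose by 0.88 (SE 0.21, adjusted p = 0.00403), and by 0.54, 1.24 and 0.65 within slides 1, 2 and 3.

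Both Tpm1 and Tpm3 were covered by probes designed on 2 RefSeq transcripts each. In Tpm3, 3 probes designed on NM_173111 gave 1.72, 1.60 and 1.90, all past the threshold adjusted over 14277 probes. A probe on NM_057208 gave 0.65 (SE 0.35, adjusted p = 0.145), was above background on only 1 control array and turned to -0.88 at the floor, and a further one was not above background anywhere. In Tpm1, the probe on NM_001034069 gave 0.88, and probes on NM_019131 gave 1.48 and 0.56, of which the latter did not pass (adjusted p = 0.0807). Another probe on NM_019131 was above background on no control array and has no fold, since it stood at -0.20 at the floor. Whether probes of 1 gene differ from each other was not tested.

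Among heavy chains of conventional myosin, the motor of contraction, 1 of 3 tested was higher. Myh10, the non-muscle myosin IIB heavy chain, measured -6.51, -4.78, -5.20, -5.06 and -4.33 in control rats and -2.34, -2.23, -2.18, -2.26 and -2.13 in DEN/TAA rats. The DEN/TAA rats lay close together and all above the controls, of which 3 of 5 arrays were above background. The difference was 2.95 (SE 0.33), or 7.72-fold (adjusted p = 2.23e-05), 2.45 with undetected signals at the floor, and 1.01 to 3.61 over the 6 scalings. Only 1 of the 3 Myh10 probes could be tested, since the others were above background on 0 and 1 arrays. Myh9, the myosin IIA heavy chain, differed by 0.32 (SE 0.37, adjusted p = 0.477) and Myh11, the smooth muscle heavy chain, by -0.37 (SE 0.58, adjusted p = 0.612). Both were above background on only some arrays, and no test compared them with Myh10. The striated muscle chains Myh1, Myh2, Myh3, Myh4, Myh6, Myh7 and Myh8 were not above background on any array, and Myh14, the myosin IIC chain, was on 1 array.

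The regulatory light chains that switch non-muscle myosin II on were higher. Myl12a measured -1.20, -1.16, -0.58, -0.66 and -0.57 in control rats and 0.74, 0.70, 0.73, 1.24 and 0.89 in DEN/TAA rats. No value came near the other group, and the difference was 1.69 (SE 0.19), or 3.24-fold (adjusted p = 2.05e-05), with 1.72 on its second probe. Myl12b, its close paralog, rose by 1.17 (SE 0.24, adjusted p = 0.00148). Myl9, the form rich in smooth muscle, differed by 0.29 (SE 0.18, adjusted p = 0.194), and Mylk, the kinase that phosphorylates these chains, by 0.24 (SE 0.45, adjusted p = 0.666). Of the other 8 genes of this group, Myl4 was above background on 2 arrays and the muscle chains and kinases Myl1, Myl11, Myl2, Myl3, Myl7, Mylk2 and Mylk3 on none.

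Class I myosins, single-headed motors that tie actin to membranes, did not move as a group, and the letters Myo1 also cover Myo16, Myo18a and Myo19 of other classes. Myo1f, known mainly from leukocytes, measured -5.30, -4.74, -4.86, -5.21 and -4.12 in control rats and -2.12, -2.07, -2.21, -1.95 and -2.17 in DEN/TAA rats. The groups were separate, with a difference of 2.74 (SE 0.21), or 6.68-fold (adjusted p = 1.95e-06), and 2.53 at the floor, since 2 control arrays were not above background. Myo1g, also a leukocyte myosin, rose by 2.00 (SE 0.39, adjusted p = 0.00112), with 2 of 5 control arrays above background. It lost its call with normexp (0.31) and in the authors' table (0.35). Myo19, which moves mitochondria, rose by 1.18 (SE 0.22), a call lost with normexp (0.07).

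Myo18a differed by -0.34 (SE 0.23) and was not called, but it was called lower in 4 of the 6 scalings. Myo1e, above background on 1 of 5 control arrays, differed by 0.24 (SE 0.40) and turned to -1.05 at the floor (adjusted p = 0.0183), and it was called higher in 1 scaling and lower in another. Myo1c, Myo1d and Myo16 were not above background on any array.

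Tubulins of both chains were higher. Of alpha tubulins, Tuba1c measured 0.51, -1.0, -0.26, -0.35 and -1.03 in control rats and 1.05, 1.19, 0.63, 1.49 and 0.77 in DEN/TAA rats. Control 1 came close to DEN/TAA 3 without passing it, and the difference was 1.45 (SE 0.29), or 2.74-fold (adjusted p = 0.00138). Tuba4a rose by 1.08 (SE 0.22, adjusted p = 0.00167), while Tuba3a, an alpha tubulin of testis, differed by 0.68 (SE 0.31, adjusted p = 0.0787). Tuba8 and Tubal3 were not above background on any array.

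The 4 beta tubulins tested were all higher in each of the 6 scalings, with a median difference of 1.61. Tubb5, the common beta tubulin of dividing and non-dividing cells, measured 0.19, -0.48, -0.11, -0.24 and -0.67 in control rats and 1.43, 1.77, 1.25, 1.73 and 1.12 in DEN/TAA rats. The groups were apart, with a difference of 1.72 (SE 0.20), or 3.30-fold (adjusted p = 3.10e-05). Tubb4b rose by 1.49 (SE 0.20, adjusted p = 9.01e-05), Tubb2b by 1.36 (SE 0.21, adjusted p = 0.000211) and Tubb6 by 2.23 (SE 0.32, adjusted p = 0.000151). The other, dimmer probe of Tubb6 gave 5.28 (SE 0.24). Tubb3 and Tubb4a, the beta tubulins best known from neurons, were not above background on any array.

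Upstream of the tubulins, CCAAT was frequent: it was found in 7 of the 11 tubulin genes with a promoter in the table (63.6%), in 33 of 72 members (45.8%) and in 36.1% of all genes. The 2 regions below are from the beta tubulins above background on all arrays with the smallest adjusted p, Tubb5 (chr20:2917327-2917576, plus strand) and Tubb4b (chr3:28438456-28438705, minus strand, GRCr8).
Tubb5: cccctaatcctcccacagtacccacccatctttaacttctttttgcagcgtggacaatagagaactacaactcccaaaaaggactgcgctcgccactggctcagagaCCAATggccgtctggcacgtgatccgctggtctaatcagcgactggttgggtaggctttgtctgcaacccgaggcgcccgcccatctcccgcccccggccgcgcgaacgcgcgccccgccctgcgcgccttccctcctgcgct
Tubb4b: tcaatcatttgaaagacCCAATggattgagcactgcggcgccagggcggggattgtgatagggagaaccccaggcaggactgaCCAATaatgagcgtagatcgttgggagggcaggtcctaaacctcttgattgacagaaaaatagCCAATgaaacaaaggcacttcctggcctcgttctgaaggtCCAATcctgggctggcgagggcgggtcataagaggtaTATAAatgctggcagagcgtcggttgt
Tubb5 held 1 CCAAT, beginning at -143. Tubb4b held 4, beginning at -233, -167, -104 and -64, and a TATAA at -27. The members called higher held CCAAT about as often as all members did (15 of 33, or 45.5%).

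**Figure D2:**
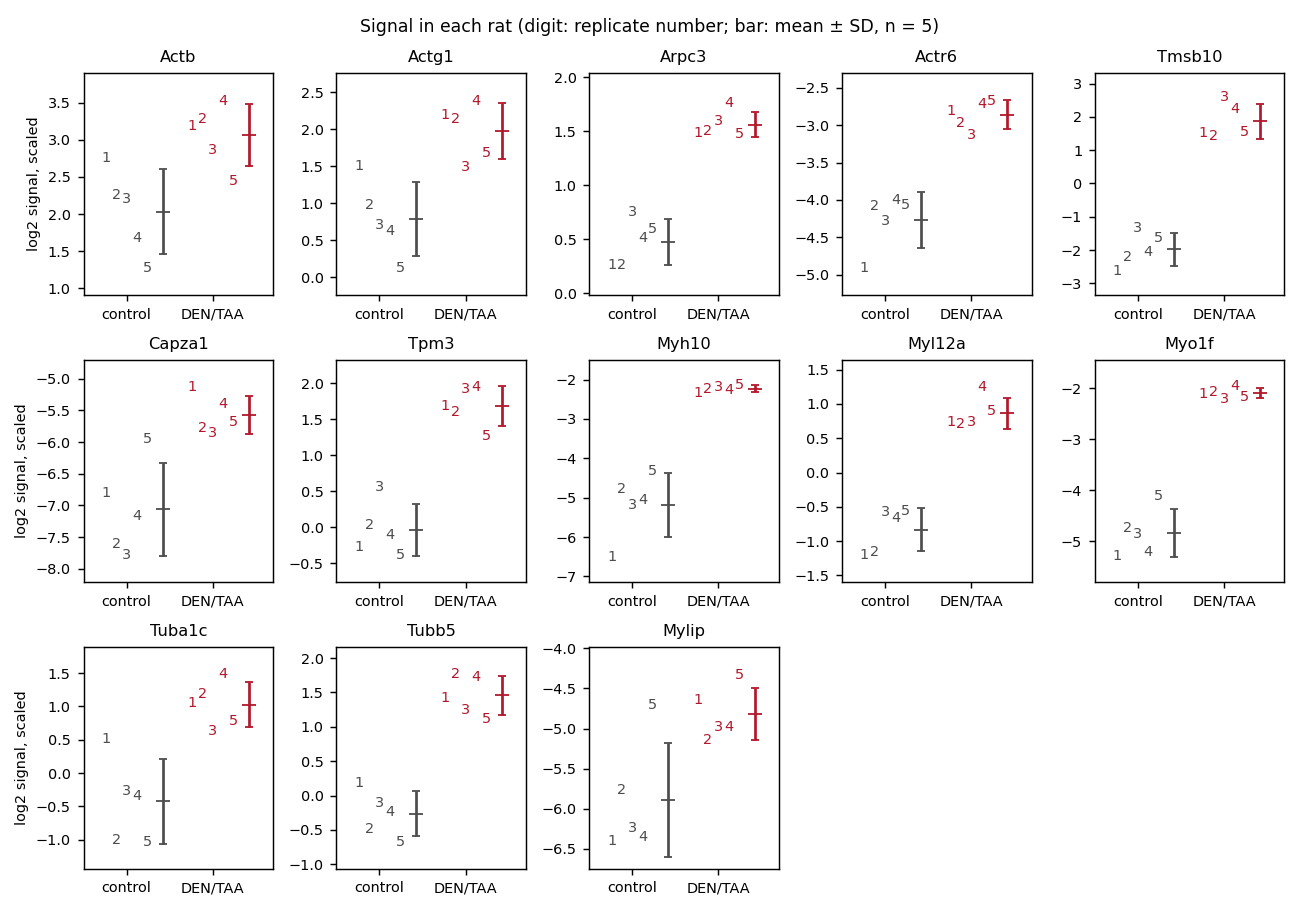
Log2 signal in each rat for Actb, Actg1 and the called member with the smallest adjusted p of each role (13 genes, 1 panel each). Digits are replicate numbers and bars are the mean ± SD (n = 5). Most panels show 2 separate clouds, while Actb, Actg1 and Mylip overlap.

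Mylip, which the letters Myl bring in, measured -6.40, -5.76, -6.24, -6.35 and -4.71 in control rats, none above background, and -4.65, -5.15, -4.98, -4.98 and -4.33 in DEN/TAA rats. Only control 5, the array with the fewest spots above background, reached the DEN/TAA values. It is given as at least 1.13-fold higher, and it was not called at the floor (0.18) or with normexp (-0.49). Cflar differed by -0.73 (SE 0.32, adjusted p = 0.0694), and was called lower in 3 of 6 scalings and at the floor (-1.03, adjusted p = 0.0146).

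The direction of single dim members depended on how arrays were scaled. Over 6 ways of scaling, the number of members higher ran from 24 (normexp) to 43 (spike-in) and the number lower from 6 to 0, while the median of all genes ran from -0.28 to 0.99. In each of the 6 the median of the members lay above that of all genes, by 0.47 in the authors' deposited table to 0.81 with normexp. The main, all-probe percentile and spike-in scalings each subtract 1 value per array. The gap is therefore 0.70 in all of these by construction, and they are not separate checks of it. Higher members made up 97.1% of member calls in the main scaling, 86.7% with the percentile over all probes, 100% with spike-ins, 80% with normexp, 93.9% after quantile normalisation and 91.2% in the authors' deposited table. Over all genes the same shares were 70.7%, 50.3%, 91.8%, 31.2%, 58.9% and 60.8%. In all 6, 20 members were called higher, among them Actg1, Arpc1b, Arpc3, Myh10, Myl12a, Myo1f, Tmsb10, Tpm3, Tuba1c and Tubb5, and none of the 34 was called lower in any. The same count was not made over all genes, so whether it is particular to the members is not known. The 34 were chosen as higher in the main scaling, so their lack of lower calls is not independent support.

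**Figure D3:**
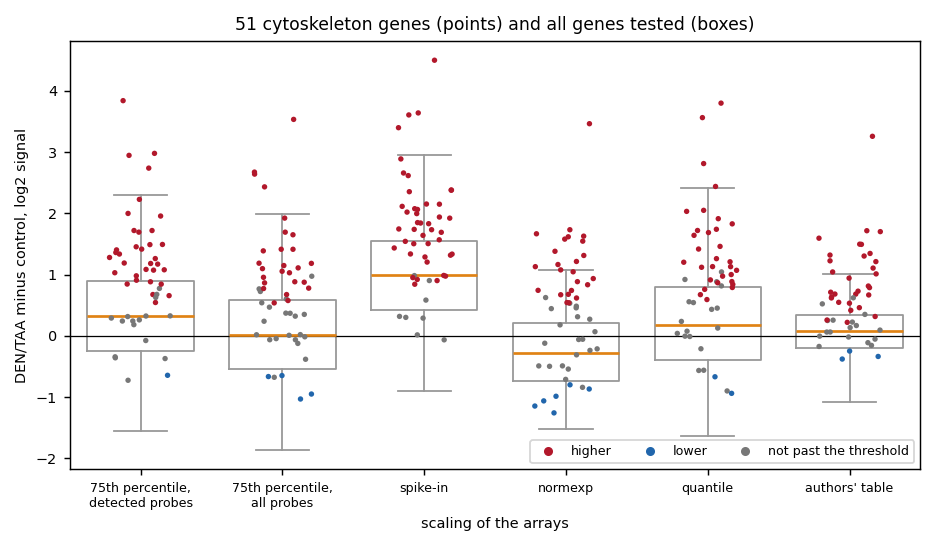
Differences (DEN/TAA minus control, log2) of the 51 tested members (points, red higher, blue lower, grey not past the threshold) over boxes of all 6855 genes (quartiles, median in orange, whiskers to the 5th and 95th percentile) under 6 scalings. The boxes move up with spike-ins (median 0.99) and down with normexp (-0.28), and the points lie mostly above the box median in each.

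Within each group the members tended to be high or low in the same rats. Among the 27 members above background on all arrays, control 5 was the lowest control for 16, where it was the lowest for 18.6% of all genes measured as well, and control 1 was the highest for 12 (20.2% of all genes) and the lowest for 7 (37.4%). DEN/TAA 4 was the highest treated rat for 15 of the 27 (14.4% of all genes) and DEN/TAA 5 the lowest for 13 (24.2%). Members of 1 array share its labelling and scaling. Without control 5 and control 1, the 2 arrays with the fewest spots above background, all 34 members were called higher again, with a median over the members of 0.91.

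Different probes of 1 gene gave the same sign as measured. Of 22 members with 2 or more probes, 11 had at least 2 that could be tested, all tested probes were called higher in 7 of these, and opposite signs were seen in 0 of 11. With undetected signals at the floor, 3 of the 11 (Cfl2, Tpm1 and Tpm3) had probes of opposite sign. Over probes, 46 of 68 were higher (67.6%), against 35.5% of 14277 probes. Tubb6 had the widest gap: its brightest probe gave 2.23 and the other 5.28 (SE 0.24), or 4.62 at the floor, the latter above background on 1 of 5 control arrays. Arpc5l gave 0.85 and 0.32, of which the lower did not pass (adjusted p = 0.0847).

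**Figure D4:**
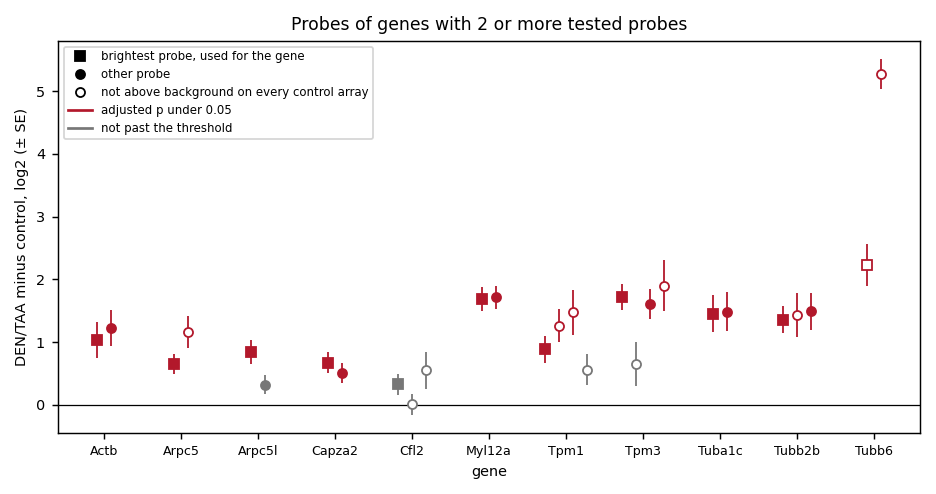
Difference (DEN/TAA minus control, log2, ± SE) of each tested probe for the 11 members with at least 2 tested probes. Squares are the brightest probe, used for the gene, and open symbols were not above background on every control array. No gene has probes past the threshold in opposite directions, and the Tubb6 probes are farthest apart (2.23 and 5.28).

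Other genes of the same systems were also mostly higher, where 39.2% of all genes tested were higher and 16.3% lower. Of other actin regulators, 22 of 33 tested were higher and 2 lower (median 0.94, or 0.71 with genes undetected in a whole group at their bound). Ezr, ezrin, which ties actin to the membrane of microvilli, rose by 4.02 (SE 0.17, adjusted p = 2.70e-08), with 3 of 5 control arrays above background, and Coro1a, the leukocyte coronin, by 2.72 (SE 0.18). Marcksl1, a membrane-bound actin cross-linker, differed by -1.28 (SE 0.40, adjusted p = 0.0175) and Lima1, a filament stabiliser, by -0.71 (SE 0.27, adjusted p = 0.0408). The number higher ran from 9 to 31 over the 6 scalings for this list. Flna, Evl, Twf2 and Lcp1, counted as higher, were above background on no control array and passed the filter through DEN/TAA arrays only.

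Of genes for tubulin folding and microtubule motors, 17 of 21 were higher and 0 lower by limma, 0 also at an unadjusted p under 0.05 (median 0.88, 7 to 19 higher over the scalings). Kif3a, counted as higher, was above background on no control array. The dynein light chains Dynlt1 and Dynll1 rose by 3.81 (SE 0.16) and 1.93 (SE 0.23), while the tubulin-folding cofactors Tbca, Tbcb and Tbcc differed by -0.09, 0.48 and -0.07 and did not pass. Of intermediate filament genes, 8 of 9 were higher (median 1.82, 6 to 9 over the scalings). Krt19, a keratin that in liver marks bile ducts, and Krt20, a keratin best known from gut epithelium, were higher by at least 9.93-fold and 7.42-fold. No control array showed either above background.

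Markers of several other cell types were also higher and hepatocyte markers were mostly lower, and their part in the result was not tested. Over all genes tested, 39.2% were higher and 16.3% lower. Of the markers counted as higher, Rac2, Lcp1, Krt19 and Spp1 were above background on no control array. All 8 leukocyte markers tested were higher, with a mean over the list of -3.65 to -2.75 in control rats and -1.50 to -1.13 in DEN/TAA rats. All 4 biliary markers tested were higher (-5.27 to -4.76 in control and -2.49 to -1.74 in DEN/TAA), as were 4 of 6 markers of smooth muscle and myofibroblasts (-4.67 to -4.07 and -3.91 to -2.83), among which Smtn was lower and Cnn1, Myocd and Lmod1 were not above background on any array. Of 4 endothelial markers 2 were higher. Of 2 markers of dividing cells tested, Cdk1 was higher by 1.37 (SE 0.35), with 2 of 5 control arrays above background. Ccnb1, also called higher, was above background on no control array and has no fold. Top2a, Mki67, Ccna2, Birc5, Ube2c and Aurkb, also on that list, were not tested. Of 5 platelet markers only Pf4 was tested, and it was higher by 2.21 (SE 0.25). Of 10 hepatocyte markers 9 were lower, with list means of 4.96 to 5.32 in control and 3.77 to 4.07 in DEN/TAA, Alb, albumin, by -0.92 (SE 0.25). These counts moved with the scaling: over the 6 scalings the number higher ran from 5 to 8 for leukocytes, 3 to 4 for bile ducts, 1 to 5 for smooth muscle and myofibroblasts, 0 to 4 for endothelium, 0 to 2 for dividing cells and 0 to 1 for platelets. For hepatocytes the number lower ran from 3 to 9 and the number higher from 0 to 2. Of skeletal muscle markers, 0 of 2 tested were called by limma, 0 also at an unadjusted p under 0.05, and Acta1, Ckm, Tnnt3, Tnnc2, Myog and Atp2a1 were not above background on any array. Coro1a and Lcp1 stand in the lists of leukocyte markers and of actin regulators, Tagln and Cald1 in those of smooth muscle and of actin regulators, Des in those of smooth muscle and of intermediate filaments, and Krt19 in the biliary and intermediate filament lists.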

How the data were processed

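Liver RNA (150 ng) was labelled with Cy3 and hybridised to Agilent whole rat genome 4x44K arrays, per the labels' protocols. The deposited scanner files hold spot intensity from Agilent Feature Extraction, version 11.5.1.1 per the file headers and 15.5 per the submitters' processing notes, background-subtracted and not scaled between arrays. The authors' deposited table holds log2 values that kept the rank order of raw signal and shared a median of 8.59, as quantile normalisation gives; how it was made is not stated in the labels. Control and outlier spots were dropped, spots of a probe averaged, and each array's 75th percentile over the 6229 probes above background on all 10 arrays subtracted. Of 41012 probes, 17502 had 1 symbol, 0 several and 23510 none here. A gene was represented by its brightest probe above background on at least 5 arrays. limma 3.58.1 in R 4.3.3 (lmFit, eBayes, two-sided) was run on 5 against 5 rats without covariates and was tested on simulated data. p-values measure the spread between these rats, whose number limits precision.

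Slide 1 held control 1 and 2 and DEN/TAA 1 and 2, slide 2 control 3 and DEN/TAA 3 and 4, slide 3 control 4 and 5 and DEN/TAA 5, each with 1 scan. Named were Actb, Actg1, up to 3 called members per role and direction by smallest adjusted p, and called members above background on no array of a group; other members are named to account for the counts, chosen after their values were seen. Members and lists were chosen with earlier results of these data known. Alternatives were 5 other scalings (normexp with an offset of 50, the 5 brightest spike-in probes), filters, blocks, priors, array weights, the floor and leaving out rats. Leaving out the 2 dimmest control arrays was added after seeing the data. Probe sequences were not analysed here, and 1 member and 1 gene list are not reported here.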

Additional observations from a re-analysis of the deposited data

Results flagged for a closer look

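In 2 of the 54 groups of 5 rats that the named members form, 1 rat lay apart from the others by more than Dixon's 95% limit, where chance gives about 1 group in 20. Capza2, an alpha chain of capping protein, was -0.55 in DEN/TAA 3, and the other DEN/TAA rats lay between -0.29 and -0.22. Tubb4b, a beta tubulin, was 1.14 in control 2, and the other control rats lay between 1.89 and 2.11. The first lay toward the control rats and the second away from the DEN/TAA rats. Left out, neither rat changed the call of its gene.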

How the results depend on the processing

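Over 636 comparisons of the named members with an alternative, 617 kept direction and call, 15 kept direction and lost the call and 4 reversed. The cause was not tested. Of the 636, 270 left out 1 rat, sharing all other arrays with the main fit, and all 270 kept direction and call. Reversed were Actr1a (-0.54), Capza1 (-0.50) and Mylip (-0.49) with normexp, and Capza1 at the floor (-0.57). These counts cover only the 27 members named by the stated rule. Arpc4, not among the 27, also turned to -0.49 with normexp and to -0.07 at the floor. Cfl1, also outside the count, was called higher in only 2 of 6 scalings. The median difference of members, 1.03, was 1.69 with spike-ins, 0.53 with normexp, 0.55 in the authors' table and 0.28 without a filter on dim probes. Members lower, 1 in all, were 4 with the all-probe percentile, 0 with spike-ins, 6 with normexp, 2 after quantile normalisation, 3 in the authors' table, 24 without a filter, 0 with a filter on all 10 arrays, 2 with array weights and 3 at the floor; members higher, 34, were 19 with the filter on all 10 arrays, which leaves 27 genes, and 33 without a filter. All genes higher and lower (2689 and 1116) were 1617 and 1597 with the all-probe percentile, 4451 and 396 with spike-ins, 883 and 1950 with normexp, 2594 and 5801 of 13832 without a filter, 1154 and 944 with the filter on all 10 arrays, and 5065 and 1955 probes in the fit over probes. Leaving out each rat gave 32 to 36 members higher, 0 to 2 lower, a median of 0.91 to 1.08, and 2344 to 2690 genes higher and 988 to 1143 lower; the 0 came without DEN/TAA 2 or DEN/TAA 3. Same-numbered rats did not deviate together in every pair (correlations of 0.086, 0.1, 0.205, -0.218 and 0.112, and 3 of 5 controls matched best with their own number), so the numbers were not taken to pair the rats. The replicate block gave 35 members higher and 2 lower. Dim signals limit the members above background on some control arrays only, whose size rests on undetected values.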
